A study of Homo sapiens with 8 samples.

Results

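The small nucleolar RNA (snoRNA) genes are described here, 237 of the 22411 genes tested on 8 whole-transcript arrays. They were chosen by name alone, as transcript clusters (the sets of probes that the array groups by locus) whose only gene symbol begins with SNORD or SNORA followed by a number. Of them 173 carry a SNORD symbol (box C/D class) and 64 a SNORA symbol (box H/ACA class). They came from 259 clusters, and where a gene had several, as 6 did, the cluster with the highest mean was used. A further 106 clusters named several genes, at least 1 of them a snoRNA, and were left out, and 143 snoRNA symbols occurred only there. Among these were the 4 snoRNAs of the RPL13A introns, most of those of GAS5 and SNHG1, SNORD118 and SNORA73A.

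The arrays measured total RNA of the Ewing sarcoma line SK-N-MC. In 4 cultures siRNAs to both YAP1 and TAZ (the WWTR1 product) had been transfected together with Viromer Blue, so the loss of either factor alone was not measured. The other 4 cultures had received a non-targeting control siRNA in the same way. All 8 were kept in EMEM with serum, received siRNA at 10 nM and were collected at 72 h. The replicates were separate cultures of 1 line, plated, treated and collected side by side.

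snoRNAs are short RNAs of the nucleolus, most of them cut out of introns of a host gene after splicing. Box C/D snoRNAs form particles with fibrillarin, NOP56, NOP58 and SNU13 and guide ribose methylation of ribosomal RNA, while box H/ACA snoRNAs form particles with dyskerin, NHP2, NOP10 and GAR1 and guide the change of uridine to pseudouridine. A few, such as the SNORD3 genes, take part in cleavage of the ribosomal RNA precursor instead. The tandem families SNORD113 and SNORD114 lie in an imprinted region expressed from the maternal chromosome, and SNORD115 and SNORD116 in one expressed from the paternal chromosome. Their copies are alike in sequence, so the array may not tell them apart.

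Values are log2 signals per transcript cluster as deposited. The signal of a gene also depends on its probes, so single genes are not ranked by level, and the median of all genes serves only as a rough mark of brightness. As a check of the siRNA, YAP1 read 6.27, 6.41, 6.42 and 6.40 with YAP1/TAZ siRNA, against 7.64, 7.72, 7.71 and 7.66 with control siRNA. WWTR1 read 5.74, 5.91, 5.91 and 5.86, against 6.52, 6.39, 6.42 and 6.57. Both fell (limma adjusted p = 4.73e-05 and 0.00898). All 9 measured Ewing sarcoma markers had means above the median of all genes (5.03), as did 2 of 6 neuroblastoma, 3 of 5 epithelial and 0 of 5 blood markers. Of the snoRNA genes 186 had means above that median, 130 of them box C/D and 56 box H/ACA, and no dim gene was left out of the tests. The array measures signal within a fixed amount of RNA, so fewer snoRNA copies per cell and more RNA of other kinds cannot be told apart.

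YAP1/TAZ siRNA replicate 2 and control replicate 4 stood apart from the other arrays. In a principal component analysis of the 22174 genes that are no snoRNA genes, their loadings on the first component were 0.58 and 0.58, against −0.30 to 0.079 for the other arrays. Each array was set against the mean of the other 3 arrays of its group, and the values are a description with no test, since the arrays were singled out from the data.

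On YAP1/TAZ siRNA replicate 2 the median snoRNA gene lay 0.53 above the other 3 arrays of its group on the log2 scale, and on control replicate 4 it lay 0.57 above. The median of the other 22174 genes was 0.013 and 0.0067. On YAP1/TAZ siRNA replicate 2, 123 snoRNA genes lay more than 0.5 above the other arrays, where 4.41% of all genes did. On control replicate 4, 132 did, where 3.44% of all genes did. More than 0.5 below the other arrays were 4 snoRNA genes on YAP1/TAZ siRNA replicate 2, where 3.44% of all genes were, and 1 on control replicate 4, where 2.44% were. More than 0.5 above the other arrays on both at once were 103 snoRNA genes, or 43.5% of them, against 1.66% of all genes. These 103 made up 27.7% of the 372 such genes, while snoRNA genes are 1.06% of all genes tested.

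The array with the highest value in its group was YAP1/TAZ siRNA replicate 2 for 167 snoRNA genes, where it was so for 38.8% of all genes. Control replicate 4 was the highest control array for 183, where it was so for 36.3% of all genes. The other 6 arrays were not level with each other. Median deviations were −0.35 and −0.28 on YAP1/TAZ siRNA replicates 1 and 4 and 0.027 on replicate 3, and −0.25, −0.26 and −0.090 on control replicates 1, 2 and 3. A raised array lowers the deviation of the other arrays in its group, so these values are not independent of each other.

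**Figure D1:**
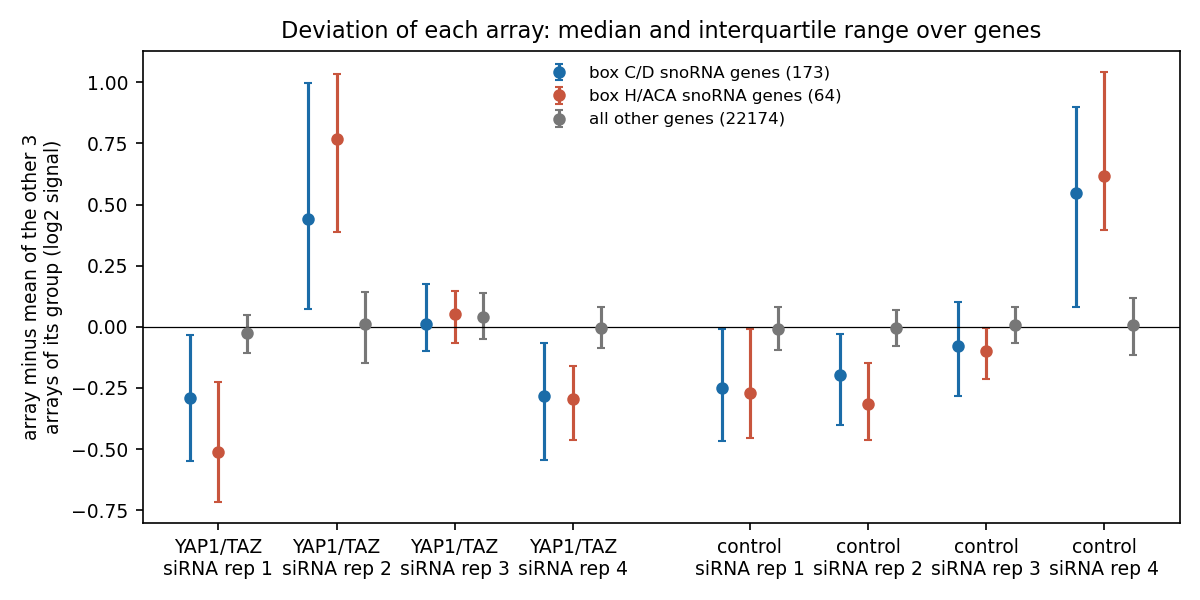
Each array minus the mean of the other 3 arrays of its group, in log2 signal, with YAP1/TAZ siRNA arrays on the left and control arrays on the right. Points are medians and bars interquartile ranges over 173 box C/D genes, 64 box H/ACA genes and 22174 other genes; the snoRNA classes are highest on YAP1/TAZ siRNA replicate 2 and control replicate 4, where the other genes stay near 0.

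Both classes were high on both arrays. The median deviation of box H/ACA genes was 0.77 on YAP1/TAZ siRNA replicate 2 and 0.62 on control replicate 4, and that of box C/D genes was 0.44 and 0.55. Of the box H/ACA genes 37 of 64 exceeded 0.5 on both, and of the box C/D genes 66 of 173. Outside the tandem families, 41 of 83 box C/D genes exceeded 0.5 on both arrays, with medians of 0.56 and 0.70.

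The deviation moved with signal level. Among genes with a mean of 7 or less, the median deviation of 102 snoRNA genes was 0.16 on either array. Among the 70 with means above 7 and up to 11 it was 0.82 on YAP1/TAZ siRNA replicate 2 and 0.75 on control replicate 4, and among the 65 above 11 it was 1.10 and 0.91. The other genes went the other way in the upper bands, with −0.18 and −0.093 for the middle band and −0.17 and −0.11 for the top band. In the middle band the classes were close, with 0.86 and 0.75 for 43 box C/D genes and 0.78 and 0.69 for 27 box H/ACA genes. Box H/ACA genes had 0.33 and 0.31 in the bottom band and 1.05 and 1.03 in the top band, over only 18 and 19 genes. The part of signal level in the gap between the classes was not tested.

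The largest mean deviation over both arrays, 1.80, belonged to SNORA65, a box H/ACA snoRNA of an RPL12 intron. On control replicate 4 alone SNORD114-14 (1.92) and SNORD12B (1.85) deviated more than SNORA65. It read 14.35, 16.81, 15.27 and 14.83 on YAP1/TAZ siRNA replicates 1 to 4, against 15.15, 14.80, 15.32 and 16.69 on control replicates 1 to 4. YAP1/TAZ siRNA replicate 2 and control replicate 4 were far above the other 6 arrays, which spanned 14.35 to 15.32. SNORD12B, from the ZFAS1 locus, read 10.24, 12.34, 11.35 and 10.54, against 10.67, 10.87, 11.32 and 12.80. SNORD114-14 read 11.41, 12.70, 11.77 and 11.32, against 11.60, 11.54, 11.90 and 13.60. For SNORA65, SNORD12B and SNORD114-14, 1 array of each group was high and the siRNA groups overlapped.

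The other genes with the largest mean deviation over both arrays were SNORA13, SNORD12, SNORD4B, SNORD116-2, SNORD111, SNORD16, SNORA37, SNORD116-24 and SNORA20. SNORA13, a box H/ACA snoRNA of the EPB41L4A-AS1 locus, read 8.32, 10.58, 9.38 and 8.88 with YAP1/TAZ siRNA, against 8.98, 8.91, 9.63 and 10.53 with control siRNA. SNORD16, from an intron of RPL4, read 12.12, 13.84, 12.62 and 12.23, against 12.51, 12.43, 12.60 and 13.91. Across the 237 genes the deviations on the 2 arrays had a Pearson r of 0.67, and across the other genes 0.59. These points share the labelling and scan of each array.

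At the other end were SNORD113-1, SNORD113-2, SNORD114-2, SNORA11B, SNORD114-17 and SNORD66. SNORD113-1 read 6.40, 4.99, 5.74 and 5.61, against 5.92, 5.67, 5.75 and 5.52, with the lowest value of each group on the array where most snoRNA genes were high. SNORD66 was split between the arrays, with a deviation of −0.92 on YAP1/TAZ siRNA replicate 2 and 0.26 on control replicate 4.

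**Figure D2:**
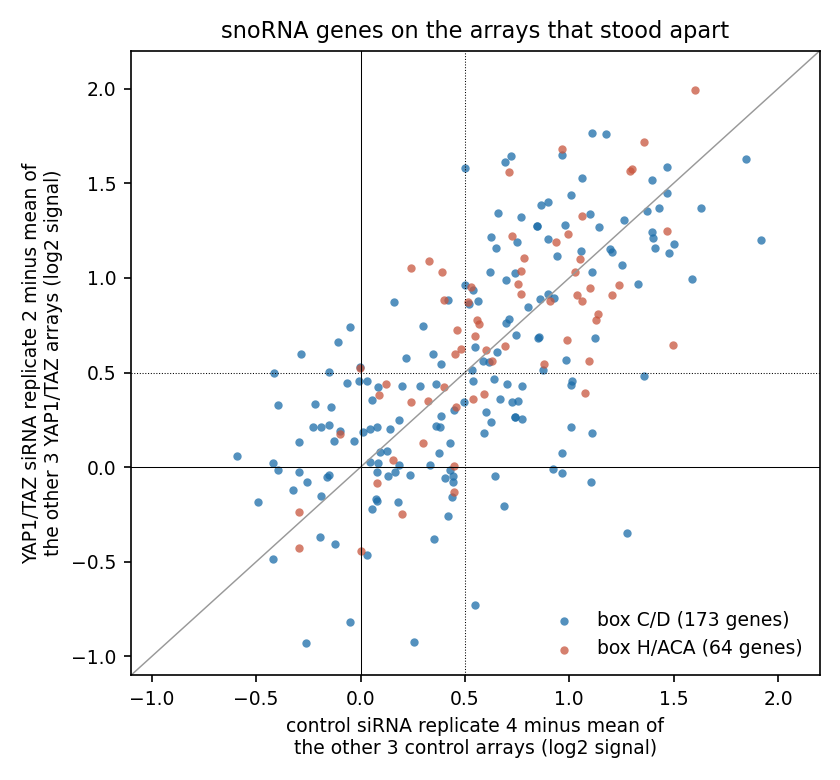
Deviation of control siRNA replicate 4 (horizontal) and YAP1/TAZ siRNA replicate 2 (vertical) from the mean of the other 3 arrays of their groups, in log2 signal, one point per snoRNA gene. Dotted lines mark 0.5 and the diagonal marks equal deviation; 103 of 237 points lie above 0.5 on both axes.

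The tandem families differed from each other on these arrays. SNORD116 was the highest, with medians of 1.32 on YAP1/TAZ siRNA replicate 2 and 0.75 on control replicate 4 and 15 of 19 copies above 0.5 on both. SNORD114 had medians of 0.32 and 0.38, with 8 of 31 copies above 0.5 on both. SNORD115 had 0.080 and 0.18, with 2 of 31, and SNORD113 had 0.020 and −0.11, with 0 of 9. Only 6 of the 31 SNORD115 copies had means above the median of all genes, against 18 of 19 for SNORD116, 21 of 31 for SNORD114 and 7 of 9 for SNORD113. Deletion of the SNORD116 region is linked to Prader-Willi syndrome.

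Other short non-coding RNAs, microRNA genes apart, were also high on these arrays. Small Cajal body RNA genes, which guide the same modifications on spliceosomal RNA, had medians of 0.47 on YAP1/TAZ siRNA replicate 2 and 0.51 on control replicate 4, with 9 of 21 above 0.5 on both. Genes and pseudogenes of U small nuclear RNAs had 0.47 and 0.39, with 56 of 213 above 0.5 on both. MicroRNA genes had 0.10 and 0.077, with 41 of 1050 (3.90%), and only 277 had means above the median of all genes. Clusters with no symbol were close to them, with 0.11 and 0.087 and 3.81% above 0.5 on both. Y RNA genes and pseudogenes had 0.76 and 0.29, and those of ribosomal 5S RNA had 0.36 and 0.33; these last groups were added after their values were seen. Protein-coding genes had −0.017 and −0.0067, with 26 of 17151 above 0.5 on both.

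**Figure D3:**
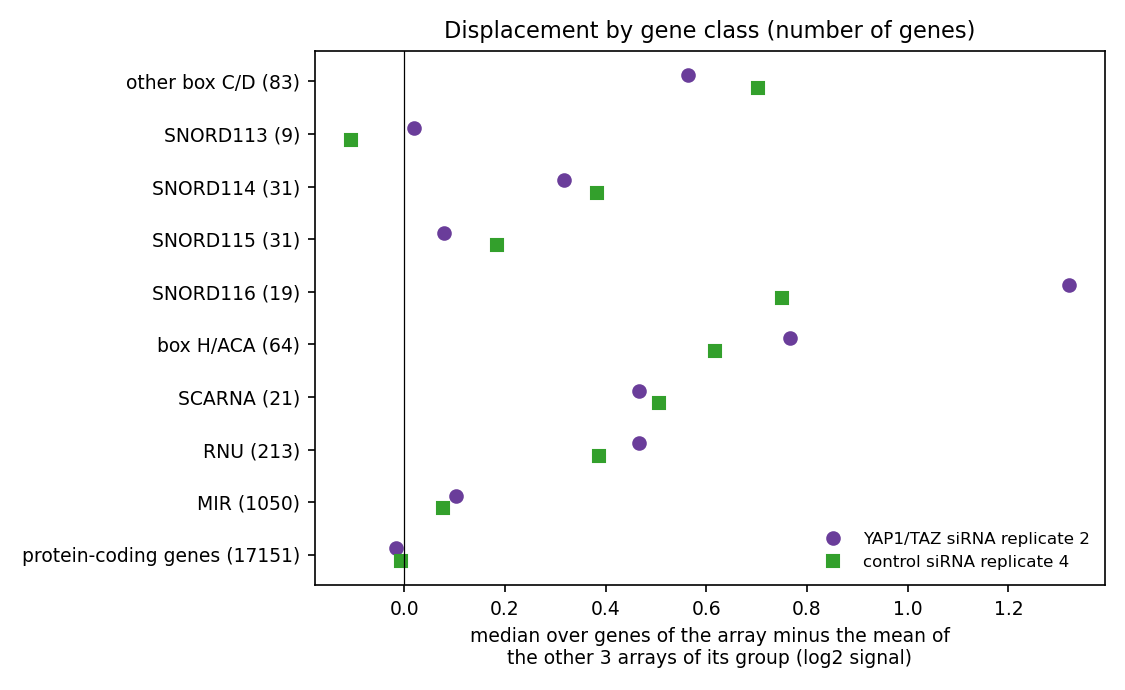
Median over genes of the deviation of YAP1/TAZ siRNA replicate 2 (circles) and control siRNA replicate 4 (squares) from the mean of the other 3 arrays of their groups, in log2 signal, with the number of genes of each class in brackets. SNORD116 lies farthest right, with 1.32 and 0.75, and protein-coding genes lie near 0.

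As a set, genes that span the snoRNA genes were not high on these arrays. RefSeq (GRCh38.p14, names and neighbours only, strand not given) places 85 of the snoRNA genes within the span of 71 other genes measured here by a cluster of their own. The median deviation of these 85 was 0.78 on YAP1/TAZ siRNA replicate 2 and 0.65 on control replicate 4, against −0.21 and −0.14 for the 71 spanning genes. Of the snoRNA genes 47 exceeded 0.5 on both arrays, and of the spanning genes 0, where 1.66% of all genes and 26 of 17151 protein-coding genes did. Low values were not particular to spanning genes. Over all genes but snoRNA genes the medians were −0.18 and −0.093 at means above 7 and up to 11, and −0.17 and −0.11 above 11. Outside the tandem families, 116 snoRNA genes within protein-coding genes had medians of 0.70 and 0.68, and 20 within long non-coding RNA genes had 0.72 and 0.82.

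NOP58 and RPS3 are shown as examples of the contrast, chosen outside the naming rules, and not every locus shows it. On YAP1/TAZ siRNA replicate 2 and control replicate 4 MBD2, which spans SNORA37, deviated by 0.18 and 0.15. RPL37, which spans SNORD72, deviated by 0.17 and 0.18. RPS3, with −0.57 and −0.51, lay below the medians of the spanning genes. NOP58, itself a core protein of box C/D particles, read 12.96, 12.65, 13.02 and 12.88 with YAP1/TAZ siRNA, against 12.97, 12.94, 12.74 and 12.51 with control siRNA. SNORD70, which lies within it, read 10.18, 11.22, 10.45 and 9.94, against 10.17, 10.38, 10.47 and 11.45. The host was lowest and the snoRNA highest on the same array of each group. At RPS3, a protein of the small ribosomal subunit, the gene read 12.56, 11.99, 12.55 and 12.58 with YAP1/TAZ siRNA. It read 12.53, 12.55 and 12.45 on control replicates 1 to 3, and control replicate 4 deviated from them by −0.51. Its intronic SNORD15A read 10.65, 11.93, 11.06 and 10.67, against 10.92, 10.99, 11.43 and 12.32. For RPL12, host of SNORA65, YAP1/TAZ siRNA replicate 2 read 14.38 among values of 14.38 to 14.40, and control replicate 4 read 14.03, against 14.39 to 14.43 on the other controls.

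Many snoRNA hosts have promoters of the terminal oligopyrimidine kind, in which the RNA starts with a C followed by a run of pyrimidines. The start sites of 4 hosts of snoRNAs named in these results are shown, from RefSeq (GRCh38.p14), each running from 40 bases before the annotated start to the 20th base after it. Capitals mark CTTTC or CTTTT within the last 30 bases.
ZFAS1 (SNORD12, SNORD12B), chr20:49278602-49278661, plus strand: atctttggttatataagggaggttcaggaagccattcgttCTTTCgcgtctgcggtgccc
RPL12 (SNORA65), chr9:127451387-127451446, minus strand: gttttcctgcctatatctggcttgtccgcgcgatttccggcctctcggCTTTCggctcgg
SNHG8 (SNORA24), chr4:118278722-118278781, plus strand: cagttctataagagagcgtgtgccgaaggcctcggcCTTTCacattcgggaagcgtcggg
RPL4 (SNORD16), chr15:66504836-66504895, minus strand: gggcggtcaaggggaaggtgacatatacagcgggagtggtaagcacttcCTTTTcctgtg
Both motifs, chosen after these sequences were seen, were searched on both strands from 10 bases before to 20 after the start. They were found in 12 of the 20 listed hosts that have a window, or 60.0%, and in 15.5% of all genes with one. Hosts whose sequences were seen first are counted in the share of hosts, so it cannot be read as an excess over all genes. A match describes the letters only, and it may lie off the start or on the other strand.

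The comparison of the siRNA groups asks which snoRNA genes change when YAP1 and TAZ are reduced. None of the 237 passed limma's adjusted p of 0.05 over all genes, a threshold that 0.214% of all genes passed, 0.134% higher and 0.0803% lower with YAP1/TAZ siRNA. At an unadjusted p under 0.05, 19 were lower with YAP1/TAZ siRNA, where 3.19% of all genes were, and 3 were higher, where 7.13% were. In shares of the snoRNA genes these are 8.02% and 1.27%. The 4 arrays of each group did not overlap for 8 snoRNA genes, all lower with YAP1/TAZ siRNA and 3.38% of the snoRNA genes, where 2.03% of all genes did so. None was higher without overlap, where 4.19% of all genes were. Differences ran from −0.87 to 0.79, so none reached 1 on the log2 scale.

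The median difference, YAP1/TAZ siRNA minus control siRNA, was −0.16 over the 237 genes, with 175 below 0 and 62 above. It was −0.16 for box C/D genes (127 of 173 below 0) and −0.19 for box H/ACA genes (48 of 64 below 0), against 0.0075 for all genes. No test was made of these medians, since snoRNA genes of 1 array are not replicates. They depended on single arrays. Without control replicate 4 they were −0.012 for box C/D and −0.037 for box H/ACA, and without YAP1/TAZ siRNA replicate 2 they were −0.27 and −0.37. Without YAP1/TAZ siRNA replicate 1 they were −0.078 and −0.070, and without its replicate 4 −0.058 and −0.095.

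Replicates varied more for snoRNA genes than for others. The median SD was 0.38 within the YAP1/TAZ siRNA group and 0.36 within the control group, against 0.11 and 0.098 over all genes (n = 4 per group). The median SE of the difference was 0.23 for snoRNA genes and 0.078 for all genes.

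**Figure D4:**
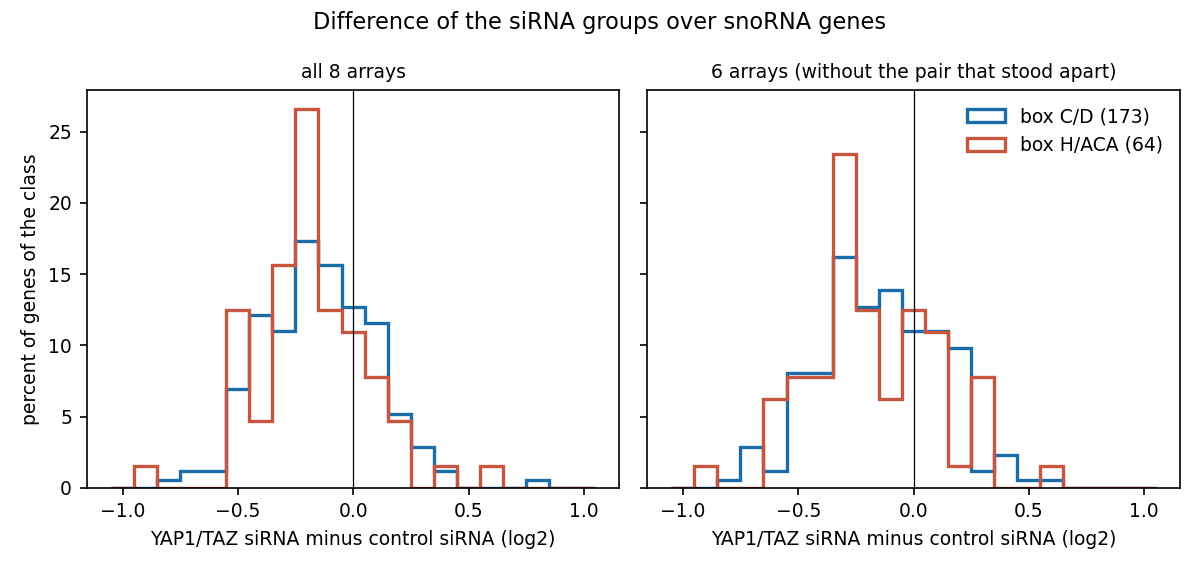
Share of box C/D (173) and box H/ACA (64) snoRNA genes, in percent of the class, by their difference YAP1/TAZ siRNA minus control siRNA on the log2 scale, with all 8 arrays (left) and with the 6 arrays left without YAP1/TAZ siRNA replicate 2 and control replicate 4 (right). Most of each class lies below 0 in both panels, with medians of −0.16 and −0.19 on the left and −0.15 and −0.22 on the right.

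SNORD42A, a box C/D snoRNA from an intron of RPL23A, had the smallest p. It read 7.09, 7.30, 7.19 and 6.97 with YAP1/TAZ siRNA, against 7.77, 7.55, 7.51 and 7.97 with control siRNA. Every YAP1/TAZ siRNA array lay below every control array. The difference was −0.56 (SE 0.11, limma adjusted p = 0.108, and 0.0227 to 0.402 over the alternatives). YAP1/TAZ siRNA replicate 2 and control replicate 4 were the highest of their groups here as well.

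SNORD114-4 read 4.93, 5.12, 4.94 and 4.45, against 5.74, 5.14, 5.61 and 5.99 (difference −0.76, SE 0.19, limma adjusted p = 0.185). SNORD114-6 read 4.09, 4.22, 4.73 and 4.62, against 4.80, 4.96, 5.15 and 5.39 (difference −0.66, SE 0.17, limma adjusted p = 0.188). In both the groups did not overlap, though for SNORD114-4 only narrowly, at 5.12 against 5.14. SNORD115-42, SNORD115-28 and SNORA58 also had no overlap, with differences of −0.39, −0.40 and −0.33. So did SNORD114-22 with −0.54 and SNORD105B, a snoRNA of the PPAN locus, with −0.25. Their limma adjusted p ran from 0.238 to 0.476. Separation was also narrow for SNORD115-42 (5.41 against 5.46), SNORD115-28 (3.53 against 3.57), SNORA58 (4.51 against 4.52) and SNORD114-22 (7.46 against 7.51). SNORD114-6, SNORD115-28 and SNORA58 were dim, with means of 4.745, 3.63 and 4.45, below the median of all genes (5.03).

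The largest difference was that of SNORA24, a box H/ACA snoRNA of SNHG8, a non-coding host. It read 14.34, 15.50, 14.98 and 14.54 with YAP1/TAZ siRNA, against 15.54, 15.46, 15.45 and 16.39 with control siRNA (difference −0.87, SE 0.29, limma adjusted p = 0.324). The groups overlapped through YAP1/TAZ siRNA replicate 2. SNHG8 itself read 9.11, 9.10, 9.19 and 9.13, against 9.56, 9.41, 9.51 and 9.10, a difference of −0.26 (SE 0.096, limma adjusted p = 0.380) with only control replicate 4 as low as the YAP1/TAZ siRNA arrays. SNORD60, which lies in the non-coding SNHG19, read 17.16, 17.87, 17.21 and 16.96, against 17.78, 17.71, 17.89 and 18.49 (difference −0.67, SE 0.22, limma adjusted p = 0.334). SNORA71C had a difference of −0.48, SNORA70B of −0.48 and SNORD115-38 of −0.44.

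Among genes brighter on average than the median gene, further low values were those of SNORD116-8 with −0.60, SNORD10 with −0.55, SNORD114-22 with −0.54 and SNORD93 with −0.53. On the upper side SNORD56B stood first, reading 6.02, 7.02, 6.57 and 6.68 with YAP1/TAZ siRNA, against 5.50, 5.84, 6.22 and 5.57 with control siRNA (difference 0.79, SE 0.22, limma adjusted p = 0.233). Its groups overlapped by 1 array each. SNORA11 differed by 0.62, SNORA14B by 0.36, SNORD18B by 0.35, SNORD7 by 0.33, SNORD92 by 0.30, SNORD113-3 by 0.18 and SNORD111B by 0.17. None of these passed, with limma adjusted p from 0.496 to 0.903. Of GAS5, a host of box C/D snoRNAs, SNORD75 and SNORD78 were measured and had differences of −0.42 and −0.48.

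The arrays that stood apart were singled out from the data and were the highest of their groups for most snoRNA genes. Leaving them out therefore narrows the spread within groups. The median SE of snoRNA genes was 0.15 with 6 arrays, against 0.23 with 8. The p-values without these arrays are a description and cannot serve as a test. Without the 2 arrays, 6 snoRNA genes had a limma adjusted p under 0.05, all lower with YAP1/TAZ siRNA, where 0.196% of all genes were. None passed as higher, where 0.643% of all genes did, and 0.839% of all genes passed in either direction. At an unadjusted p under 0.05, 58 were lower, where 5.45% of all genes were, and 8 were higher, where 11.2% were. With 3 arrays per group the groups did not overlap for 51 lower snoRNA genes, where 7.98% of all genes did so, and for 6 higher ones, where 13.4% did. The medians were −0.15 for box C/D and −0.22 for box H/ACA. Over the snoRNA genes the median of YAP1/TAZ siRNA replicate 2 minus control replicate 4, the 2 arrays left out, was −0.15. Over all genes it was 0.010. This sets 1 array against 1. The SD over arrays of the class median was 0.24 for box C/D and 0.49 for box H/ACA. The value of −0.15 lies within that spread, so no conclusion is drawn from it.

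The 6 genes were named after their values were seen, and their p-values without those arrays carry the limit given above. SNORD11, which lies in NOP58, read 9.75, 9.90 and 9.95 on YAP1/TAZ siRNA replicates 1, 3 and 4, against 10.38, 10.38 and 10.39 on control replicates 1, 2 and 3 (difference −0.52, SE 0.063, limma adjusted p = 0.0278). The arrays left out read 11.01 with YAP1/TAZ siRNA and 11.44 with control siRNA, and with all 8 its limma adjusted p was 0.683. SNORD60 differed by −0.68 (SE 0.082, limma adjusted p = 0.0278), and SNORA26, which lies in the non-coding DANCR, by −0.62 (SE 0.082, limma adjusted p = 0.0337). SNORD116-8 differed by −0.83, SNORA68 by −0.52 and SNORA22 by −0.50, with limma adjusted p of 0.0448, 0.0479 and 0.0462. Over all alternatives the limma adjusted p of SNORD11 ran from 0.0278 to 0.909 and that of SNORD60 from 0.0278 to 0.649. The highest was 0.846 for SNORA26, 0.913 for SNORD116-8, 0.925 for SNORA68 and 0.951 for SNORA22. In each of the 6 the 3 remaining YAP1/TAZ siRNA arrays lay below the 3 remaining controls.

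**Figure D5:**
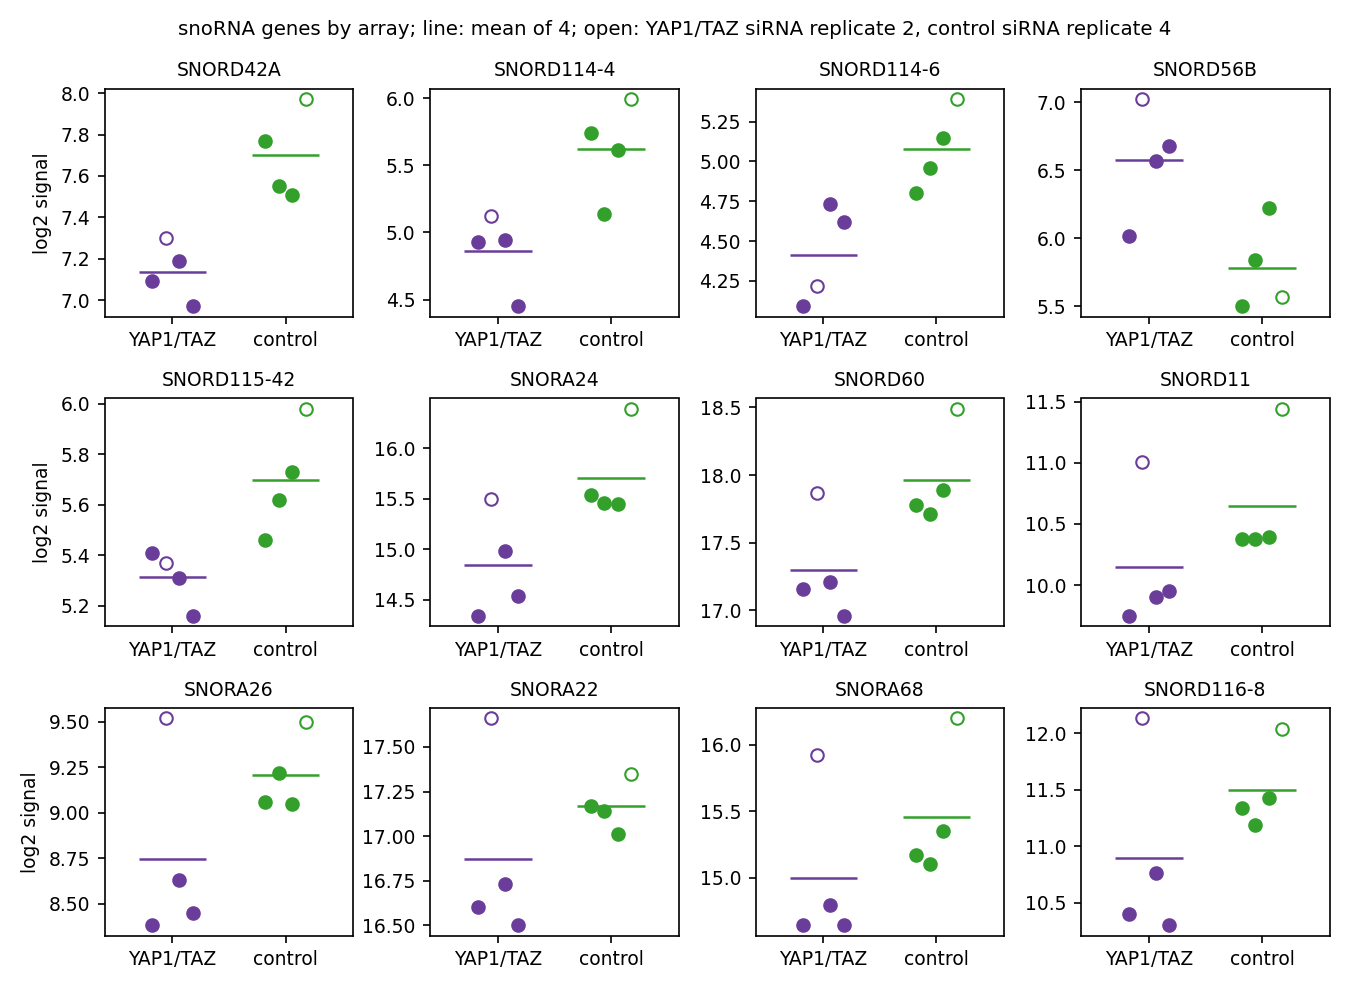
Log2 signal (vertical axis, its own scale in each panel) of 12 snoRNA genes on the 4 YAP1/TAZ siRNA arrays (left) and the 4 control arrays (right), with lines at the group means. Open symbols are YAP1/TAZ siRNA replicate 2 and control siRNA replicate 4; in SNORD11, SNORA26, SNORA22, SNORA68 and SNORD116-8 the open symbol of the YAP1/TAZ siRNA group lies above the filled controls.

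By family, SNORD116 had a median difference of −0.24 with all arrays, with 17 of 19 copies below 0. Without the pair that stood apart the median was −0.41, with 19 of 19 below 0 and a range from −0.83 to −0.010, and 10 copies were lower at an unadjusted p under 0.05, where 5.45% of all genes were. These copies are not separate observations, since they share sequence and a precursor. The arrays left out went the other way in SNORD116. There the median of YAP1/TAZ siRNA replicate 2 minus control replicate 4 was 0.13, where it was −0.15 over the snoRNA genes. SNORD116-24 read 13.74, 15.64, 14.24 and 13.65 with YAP1/TAZ siRNA, against 14.32, 14.24, 14.29 and 15.39 with control siRNA. SNORD114 had a median of −0.25 over 31 copies, SNORD115 −0.085 over 31 and SNORD113 −0.020 over 9. Box C/D genes outside these families had −0.13 over 83, and −0.087 without the pair.

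The snoRNAs listed for cleavage of the ribosomal RNA precursor were represented by 10 of 15 genes, and none passed (smallest limma adjusted p = 0.779, 0 at an unadjusted p under 0.05). SNORD3A, a copy of the abundant U3 gene, read 17.97, 18.41, 18.37 and 18.17 with YAP1/TAZ siRNA, against 17.87, 18.03, 18.48 and 18.75 with control siRNA, a difference of −0.053 (SE 0.19). The copies SNORD3B-1, SNORD3B-2, SNORD3C and SNORD3D had differences of −0.075, −0.075, −0.040 and −0.11. Without the pair that stood apart SNORD3A, SNORD3B-1, SNORD3B-2 and SNORD3C turned to 0.043, 0.043, 0.043 and 0.090, and SNORD3D was −0.033. SNORD3B-1 and SNORD3B-2 had identical values on every array and count as 1 measurement. On YAP1/TAZ siRNA replicate 2 the SNORD3 copies lay 0.24 to 0.29 above the other arrays of the group, and on control replicate 4 0.60 to 0.77.

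SNORD13, a further box C/D gene counted on that list, read 19.93, 19.78, 19.93 and 19.93, against 19.93, 19.93, 19.90 and 19.73. These data hold no evidence that SNORD13 takes part in cleavage. The value 19.93 is the highest in the deposited table, so 5 of these values may stand at a ceiling and bound the level only from below. SNORD14A, from an intron of RPS13, read 12.02, 13.24, 12.61 and 12.10, against 12.01, 12.41, 12.43 and 13.87. SNORD14B, SNORD14D and SNORD14E had differences of −0.31, −0.44 and 0.14.

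Of the core proteins of snoRNA particles 6 of 8 were measured, and none passed. FBL, the methyltransferase fibrillarin, read 13.79, 13.90, 14.16 and 13.98 with YAP1/TAZ siRNA, against 13.81, 13.78, 13.85 and 13.73 with control siRNA (difference 0.17, SE 0.079, limma adjusted p = 0.536). NOP58 differed by 0.088 and SNU13 by −0.075. Of the H/ACA proteins NHP2 differed by 0.22 (SE 0.098, limma adjusted p = 0.505), NOP10 by −0.043 and GAR1 by −0.020. NOP56 and DKC1 were not analysed here. On YAP1/TAZ siRNA replicate 2 and control replicate 4 the median deviation was −0.077 and −0.083 for the 3 measured C/D proteins, and −0.18 and −0.25 for the 3 H/ACA proteins. NOP10 alone was high on YAP1/TAZ siRNA replicate 2, with a deviation of 0.74.

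Further genes of the pathway were counted by the same fit, and none passed over all genes in either direction. The lists were 13 assembly factors (median difference 0.055), 12 processing and decay factors (0.059), 31 genes of RNA polymerase I and precursor processing (0.040), 9 coding hosts (0.038) and 3 non-coding hosts (0.070). At an unadjusted p under 0.05 they held 2, 1, 0, 0 and 0 genes higher with YAP1/TAZ siRNA and 0, 0, 1, 0 and 1 lower, where 7.13% of all genes were higher and 3.19% lower. The non-coding host that was lower was SNHG8. Small Cajal body RNA genes had a median difference of −0.21 over 21, with 0 passing and 5 (23.8%) lower at an unadjusted p under 0.05, where 3.19% of all genes were. Protein-coding genes had a median of 0.012, microRNA genes −0.0075 and U small nuclear RNA genes −0.032.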

How the data were processed

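Total RNA was prepared with the mirVana kit and labelled with the GeneChip WT PLUS kit, per the labels' protocols. The authors deposited 1 log2 signal for each transcript cluster and array. The submitters' processing notes name Transcriptome Analysis Console. For the summary method, the normalization and the genome build, details were not given in the sources used here. The log2 scale was read from the values (2.27 to 19.93).

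Of 67528 clusters, 23781 had 1 gene symbol. Symbols were updated with RefSeq names, leaving 22411 genes. Groups came from sample titles. limma 3.58.1 in R 4.3.3 (lmFit, eBayes, no covariate, 6 residual degrees of freedom) was fitted to all genes with Benjamini-Hochberg adjustment and was tested on simulated data. Alternatives were a replicate block, quantile normalization, median centring, a filter on dim genes, means over clusters, limma-trend, array weights, all clusters and leaving out arrays.

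Named snoRNA genes were the 12 with the smallest p, the 8 largest differences each way above the median level, the 12 most and 6 least displaced, and those listed by role. SNORD70, SNORD15A and SNORD72 were named outside these rules, as examples of host loci. The members and lists were chosen with earlier results of these data known.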

Additional observations from a re-analysis of the deposited data

Results flagged for a closer look

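Within groups of 4 arrays, the gap between the end array and its neighbour was set against the range of the group, and ratios above Dixon's 95% critical value for 4 samples are given. Of 120 groups tested, 17 lay above it, and chance gives about 1 in 20. The genes share arrays, and some were named for their high values on YAP1/TAZ siRNA replicate 2 and control replicate 4 or for their differences, so the number above the critical value cannot be read against chance.

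In the YAP1/TAZ siRNA group the ratio was 0.856 for SNORD78, 0.883 for SNORA68 and 0.841 for SNORD11, with replicate 2 high in each. For SNORD13 it was 1, with replicate 2 low and the other arrays tied at the highest value of the table, so a possible ceiling fixes the ratio.

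In the control group replicate 4 was high for SNORD11 (0.991), SNORD14B (0.953), SNORD93 (0.938), SNORD116-24 (0.930), SNORD10 (0.920), SNORA24 (0.904), SNORD16 (0.885), SNORD14D (0.882) and SNORD4B (0.872). It was low for SNORD13 (0.850), where replicates 1 and 2 stand at the same possible ceiling. Replicate 1 was high for SNORA58 (0.875), replicate 3 was high for SNORD113-3 (0.848), and replicate 3 was low for SNORD14E (0.837). The cause was not tested.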

How the results depend on the processing

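With 8 arrays, 48 of all genes and 0 snoRNA genes passed, 22 snoRNA genes had an unadjusted p under 0.05 and 8 had no overlap. The count of all genes was 559 with array weights, 25 with centring, 16 clusters when all 67528 were fitted (8 tested genes higher and 4 lower among them), 82 among genes above the median level, 3 with the replicate number as a block and 188 without YAP1/TAZ siRNA replicate 2 and control replicate 4. It ran from 12 to 166 when each replicate was left out in turn. Passing snoRNA genes were 3 with array weights (SNORA24, SNORD42A and SNORD60), 6 without the pair and 0 to 2 without 1 replicate. The 2 were SNORA22 and SNORA26 without YAP1/TAZ siRNA replicate 2. All were lower, where 0.544%, 0.196% and 0.129% of all genes passed as lower at these 3 settings. As higher 437, 144 and 137 of all genes passed, and no snoRNA gene. Where arrays singled out from the data were left out, these counts of snoRNA genes are a description. Those at an unadjusted p under 0.05 were 54 with array weights (42 lower and 12 higher, where 6.28% and 12.1% of all genes were), 14 among genes above the median level (13 lower and 1 higher, where 3.33% and 11.4% were), 66 without the pair and 14 to 64 without 1 replicate. Those without overlap were 5 among genes above the median level (where 2.37% of genes were lower without overlap). They were 57 without the pair (51 lower and 6 higher, where 7.98% and 13.4% of all genes were). Without 1 replicate they were 8 to 51. The 8 came without control replicate 2 (all lower, where 3.01% were). The 51 came without YAP1/TAZ siRNA replicate 2 (49 lower and 2 higher, where 5.86% and 11.2% were). Shares over all genes moved too. Higher without overlap were 4.19% of all genes with 8 arrays, 6.48% without YAP1/TAZ siRNA replicate 1 and 13.4% without the pair. The ranges without 1 replicate are therefore no result about snoRNA genes by themselves. The class medians stayed below 0, from −0.27 to −0.012 for box C/D and from −0.37 to −0.037 for box H/ACA without 1 replicate. Among values of genes named for their p, their difference or passing without the pair, 443 kept direction and call and 11 newly passed. Among them SNORD111B turned to −0.074 without YAP1/TAZ siRNA replicate 2, the lowest of its values without 1 replicate (highest 0.35). Genes named only by displacement or role were not in this count. Of these, SNORD3A, SNORD3B-1, SNORD3B-2, SNORD3C and SNORD113-1 turned from below 0 to 0.043, 0.043, 0.043, 0.090 and 0.14 without the pair. The cause was not tested. Deviations of same-numbered replicates correlated at 0.37, −0.47, 0.016 and −0.39. The arrays that stood apart correlated at 0.61 and weigh on these values, which cannot decide whether the numbers pair the arrays. The replicate block left 0 snoRNA genes passing and 21 at an unadjusted p under 0.05 (19 lower and 2 higher, where 2.52% and 5.59% of all genes were). The number of arrays limits precision, array signal gives no depth, and near-identical copies may share signal.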

Other observations

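Clusters that name several genes were left out of the results above. The 28 clusters naming only snoRNAs had median deviations of 0.28 on YAP1/TAZ siRNA replicate 2 and 0.18 on control replicate 4, and 3 of them (10.7%) exceeded 0.5 on both. Their median difference, YAP1/TAZ siRNA minus control siRNA, was −0.23. The 78 clusters naming a snoRNA together with other genes had −0.078 and −0.093, with 2 (2.56%) above 0.5 on both and a median difference of 0.0038. The 42204 clusters with no symbol had 0.11 and 0.087, with 1606 (3.81%) above 0.5 on both. No test was made of these values.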
